A study of Mus musculus with 72 samples.

Results

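Cecal ligation and puncture (CLP) is a mouse model of sepsis in which the cecum is tied off and perforated, so that gut bacteria reach the peritoneum. The spleens of CLP mice were compared with those of sham-operated mice, 4 arrays in each arm, 8 of the 72 organ arrays of the series. All mice were female C57Bl/6J. Sham and CLP mice both received 100 µL of saline through a cannula 6 hours after surgery, and spleens were collected at 28 hours. A further 4 spleen arrays, from CLP mice given mesenchymal stromal cells (MSCs) in place of saline, entered the fit to estimate the spread and were not compared here. The design text states 4 animals per group, so the arrays of an arm were taken as separate animals. Arrays were chosen by the heading of their column, and a probe was used only where its row of the deposited table follows that heading, which left 22504 of 45255 complete rows. Arrays carry the letters of their headings, E, F, E2 and F2 for sham, A, B, A2 and B2 for CLP and C, D, C2 and D2 for the MSC arm.

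The spleen filters the blood. Its white pulp holds T cell zones and B cell follicles, with a marginal zone of B cells and macrophages at the border, and its red pulp holds macrophages that take up old red cells and bacteria. In sepsis the organ receives neutrophils and monocytes mobilised from the bone marrow, and loss of lymphocytes by apoptosis is a known feature of the CLP model. Bacterial products act through Toll-like receptors and NF-κB to induce cytokines, and the stress response adds glucocorticoids, which induce a set of their own target genes. In RNA from a whole organ, fewer cells of a type and less RNA per cell cannot be told apart.

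The labels of the spleen arrays were not clean. The tissue characteristic reads spleen for 4 of the 12 samples, while title, source name and description name the spleen in all 12. A second deposited table of the same arrays gives 10 of the 12 spleen arrays the same arm, but places the array headed E2 (sham) under a sample of the MSC arm and the array headed D2 (MSC) under a sham sample. The acute-phase gene *Saa3* stood at 7.46 log2 in E2, within the 6.59 to 8.03 of the other sham arrays, and at 12.63 in D2, against 12.85 to 13.87 in the CLP arrays. Over the probes tested, E2 correlated with the undisputed sham arrays E, F and F2 at 0.82, 0.46 and 0.45. D2 correlated with the same arrays at -0.19, -0.65 and -0.68, and with the MSC arrays C, D and C2 at -0.52, -0.62 and 0.63. These correlations alone therefore do not place D2 in an arm. The headings were kept, and results are given below with and without both arrays. No sample description carries the heading of CLP array B, so the labels match it to its arm only. After each probe was centred, its values matched those of a CLP sample of the second table to within 8.91e-05 log2.

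RNA of the exocrine pancreas, which lies against the spleen, was present in arrays of both arms. The mean log2 level of 10 pancreatic enzyme genes, a list trimmed after the values were seen, was 9.37 in E, 14.59 in F, 10.98 in E2 and 14.60 in F2 among sham arrays, and 14.36 in A, 13.65 in B, 6.44 in A2 and 9.06 in B2 among CLP arrays. The arms therefore overlapped, with 2 high arrays in each. None of the 13 pancreas genes tested passed the threshold between the arms. Of 7 hepatocyte genes on the rows used, 0 exceeded 6 log2 in all 4 sham arrays. The fat gene *Adipoq* lay between 9.03 and 10.65 in the sham arrays and at 6.21 in A, 6.41 in B, 10.05 in A2 and 9.41 in B2 (adjusted p = 0.220).

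**Figure D1:**
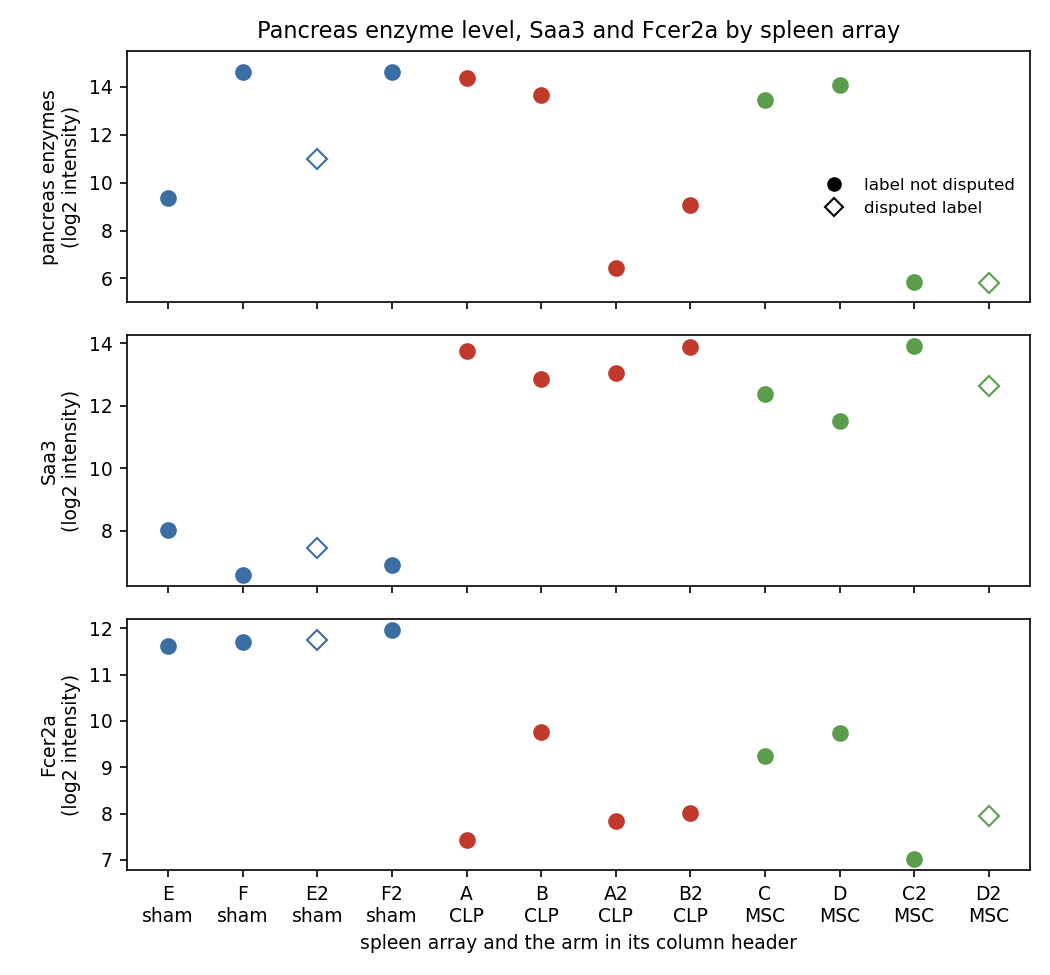
Mean log2 level of 10 pancreatic enzyme genes (top), *Saa3* (middle) and *Fcer2a* (bottom) on each of the 12 spleen arrays, with sham in blue, CLP in red and MSC in green and open diamonds for the arrays E2 and D2 whose arm differs between the deposited tables. Pancreas enzymes exceed 13 log2 in 6 arrays, 2 in each arm. *Saa3* and *Fcer2a* were picked among genes whose sham and CLP arrays do not overlap.

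CLP changed the spleen transcriptome in both directions. Of 11048 probes above 6 log2 in at least 4 spleen arrays, 1492 (13.5%) differed between CLP and sham at a limma adjusted p below 0.05, with 798 higher (7.22%) and 694 lower (6.28%). At least 2-fold changes were called for 526 of them, 268 higher (2.43%) and 258 lower (2.34%). With 1 probe per gene, 509 of 7090 genes (7.18%) were higher and 503 (7.09%) lower. When E2 and D2 were left out, 508 probes were called (284 higher, 2.57%, and 224 lower, 2.03%), 505 of which were among the 1492. The count depended on single arrays: it was 551 without E, 601 without F, 644 without E2, 585 without F2, 532 without A, 557 without A2 and 3021 without B. Array B was the CLP array nearest the sham mean for 12 of the 12 largest rises and 11 of the 12 largest falls, and array A was the farthest for 9 of each 12. Within the arrays whose letter has no 2, 5 probes were called, and within those with a 2, 607. What these 2 label sets stand for is not given in the sources used here. In the second table, which also covers probes on the rows not used, 1117 of 20558 probes were called without E2 and D2, 658 higher (3.2%) and 459 lower (2.23%). Genes found only on the rows not used numbered 3398 there, with 106 higher (3.12%) and 99 lower (2.91%).

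The 12 genes with the largest rises were inflammatory mediators, their inhibitors and stress-response genes. They were picked among called genes whose CLP arrays did not overlap the sham arrays, so that separation is a condition and not a result. *Saa3*, an acute-phase apolipoprotein that macrophages and epithelia make, measured 8.03, 6.59, 7.46 and 6.91 log2 in sham arrays E, F, E2 and F2. The CLP arrays A, B, A2 and B2 measured 13.74, 12.85, 13.05 and 13.87. Every CLP array lay more than 4 log2 above every sham array. The rise was 6.13 ± 0.46 (SE) log2, or 70.0-fold (adjusted p = 4.44e-05, and 0.00133 without E2 and D2), and it passed the threshold whichever array was left out.

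*Cxcl1*, a chemokine that attracts neutrophils, had uniform sham levels of 6.48, 6.62, 6.43 and 6.40 log2. Its CLP levels spread widely, at 15.25 in A, 9.71 in B, 13.36 in A2 and 11.56 in B2. The rise was 5.99 ± 1.33 (SE) log2 with adjusted p = 0.0170. The call was lost without A or A2 (adjusted p up to 0.0535) and without both E2 and D2 (0.0566). *Cxcl2*, a chemokine of the same receptor, was dim in sham, at 4.76 to 4.99 log2, and measured 13.32, 6.64, 12.43 and 10.34 in A, B, A2 and B2. Set against the floor of 6 log2 it rose at least 25.7-fold (adjusted p = 0.0366). Its call was lost without any 1 of E, F, E2, F2, A, A2 and B2, with adjusted p up to 0.108. The monocyte chemokine *Ccl7* rose at least 12.8-fold on average (adjusted p = 0.0472), and lost its call without any 1 of 8 arrays (up to 0.135, without A).

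*Cxcl1* and *Cxcl2* lie close together on chromosome 5, and their promoters are shown because they alone held a match to an NF-κB motif among the 10 of the 12 largest rises that had a promoter window. The letters GGGNNNTTCC were searched on both strands in the 250 bases before the start of each gene, in RefSeq promoter windows of build GRCm38.p6, where N is any base. Overlapping matches were counted, and each of these promoters held 3. The motif was present in 4.60% of 27025 such windows, in 2 of the 10 rises that had a window and in 0 of 10 falls. Matches are printed in capitals in the last 150 bases before the start, 5′ to 3′ on the gene's strand. The same stretch before *Saa3*, the largest rise, holds no match and is given for comparison. Here, at chr5:90891095-90891244 (plus strand), chr5:90903749-90903898 (plus strand) and chr7:46715677-46715826 (minus strand), are these sequences.
Cxcl1: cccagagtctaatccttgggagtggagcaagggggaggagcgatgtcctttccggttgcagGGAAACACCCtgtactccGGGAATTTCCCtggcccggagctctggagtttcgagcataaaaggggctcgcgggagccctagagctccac
Cxcl2: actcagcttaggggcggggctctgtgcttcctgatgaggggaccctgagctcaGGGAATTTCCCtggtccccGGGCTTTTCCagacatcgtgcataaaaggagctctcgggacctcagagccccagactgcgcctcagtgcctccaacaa
Saa3: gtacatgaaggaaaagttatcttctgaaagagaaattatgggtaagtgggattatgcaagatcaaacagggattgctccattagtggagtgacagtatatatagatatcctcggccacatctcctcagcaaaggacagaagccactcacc
A match is a string of letters and not a measured binding site. The letters TTCNNNGAA, which STAT factors can bind, were in 7.18% of all windows, in 2 of the 10 rises (*Socs3* and *Il1r2*) and in 1 of the 10 falls (*Slc46a3*). The letters TTGCNNAA, which C/EBP factors can bind, were in 9.55% of all windows, in 2 of the 10 rises (*Saa3* and *Mmp3*) and in 0 of the 10 falls.

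Several inhibitors of cytokine signalling stood among the largest rises. *Socs3*, which blocks signalling by the IL-6 receptor family, measured 9.58, 9.34, 9.54 and 9.49 log2 in the sham arrays E, F, E2 and F2. In CLP arrays A, B, A2 and B2 it measured 14.44, 12.26, 13.93 and 13.40. The arms were far apart, and the rise was 4.02 ± 0.52 (SE) log2 (adjusted p = 0.00137, and 0.0110 without E2 and D2). *Il1r2*, a decoy receptor that binds IL-1 without signalling, was at 5.58 to 6.26 log2 in sham and at 8.97 to 10.52 in CLP. It rose at least 13.3-fold (adjusted p = 0.000137). *Il10*, the main anti-inflammatory interleukin, went from 5.27 to 6.20 log2 in sham to 11.11, 7.41, 10.40 and 9.47 in A, B, A2 and B2, at least 11.6-fold (adjusted p = 0.00870). *Il1rn*, which encodes the IL-1 receptor antagonist, rose by 3.39 ± 0.96 (SE) log2 (adjusted p = 0.0387), and its call was lost without any 1 of 7 arrays (up to 0.111, without A). *Socs3*, *Il1r2* and *Il10* kept their calls whichever array was left out and without E2 and D2.

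The other large rises were *Mmp3*, a matrix metalloproteinase, *Il1a*, an IL-1 cytokine released by damaged cells, *Cdkn1a*, the cell cycle inhibitor p21, and *Ier3*, an immediate early stress gene. *Mmp3* was at 6.43 to 7.17 log2 in sham and at 8.87 to 12.61 in CLP, a rise of 4.31 ± 0.92 (SE) log2 that all 3 of its probes showed (3.79 to 4.31). *Cdkn1a* was at 7.74 to 7.96 in sham and at 9.46 to 12.36 in CLP. The rises of *Mmp3*, *Cdkn1a* and *Ier3* passed the threshold without any 1 array, at adjusted p = 0.0142, 0.0142 and 0.0167 over all arrays. They missed it without both E2 and D2, at 0.0570, 0.0517 and 0.0616. *Il1a* rose by 3.41 ± 0.80 (SE) log2 (adjusted p = 0.0210) and lost its call without E, F, E2, F2 or A2 (up to 0.0568).

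**Figure D2:**
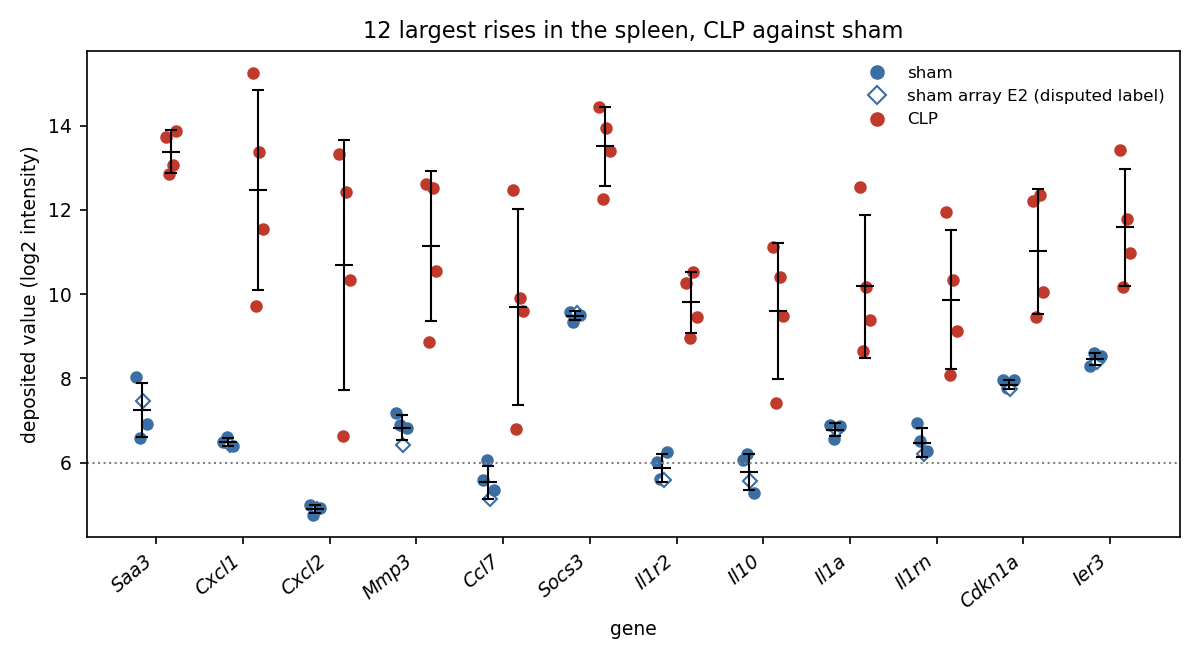
Deposited log2 intensity of the 12 genes with the largest called rises, on the 4 sham (blue) and 4 CLP (red) arrays, with the mean and SD of each arm in black, an open diamond for sham array E2 and a dotted line at the 6 log2 floor. The CLP arm has a larger SD than sham for every gene shown except *Saa3* (0.50 in CLP and 0.63 in sham), and *Cxcl2* runs from 6.64 to 13.32 in CLP.

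Over all 7090 genes tested 7.18% rose and 7.09% fell, and the counts in this and the following lists are to be read beside these shares. Among the 28 cytokine and chemokine genes tested, 9 rose, 3 fell and 16 did not pass the test, with a median change of 0.88 log2 against -0.01 over all probes tested. Without E2 and D2, 4 rose and 2 fell. Beside those above, *Cxcl12*, a chemokine that holds leukocytes and stem cells in their niches, rose by 1.39 log2 (adjusted p = 4.43e-05), the interleukin *Il18* by 0.99 (adjusted p = 0.000851) and the B cell survival factor *Tnfsf13b* by 1.03 (adjusted p = 0.00810). Of the 3 *Cxcl12* probes that was the brightest and the only one called, and the others changed by 0.27 and -0.16. A second, dimmer *Il18* probe changed by 0.08. Lymphotoxin alpha (*Lta*), which lymphocytes make, fell by 1.51 log2 (adjusted p = 0.00202), *Ccl24*, which attracts eosinophils, fell by 1.38 (adjusted p = 0.000554), and *Il16* fell by 1.16 (adjusted p = 0.0458), where a dimmer probe showed 0.74 and was not called. These 6 genes were named after their values were seen. The classical early mediators *Il1b* and *Tnf* had changes of 2.01 log2 (adjusted p = 0.15) and 0.70 log2 (adjusted p = 0.51), which did not pass. *Tnf* was at 10.24 in array A and at 7.18 to 7.48 in the other CLP arrays, against 7.27 to 7.44 in sham. For *Il1b* the CLP arrays nonetheless all lay above the sham arrays, as they did, in one direction or the other, for 23.4% of all probes tested.

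Of 13 neutrophil genes tested, 5 rose and 0 fell, and 8 did not pass. The cystatins *Stfa1* and *Stfa2*, expressed in myeloid cells, rose at least 4.07-fold and at least 1.16-fold against the floor, *Hp* (haptoglobin) rose by 2.07 log2 and *Ngp*, a neutrophil granule protein, by 1.64, beside *Il1r2* above. For *Stfa1* the order of the CLP arrays was the reverse of that for the cytokines, with 9.23 log2 in B, 8.53 in B2, 7.86 in A2 and 6.47 in A, all above the sham values of 5.42 to 5.64. The granule genes *Camp*, *Mpo* and *Pglyrp1* had changes of -0.31, -0.06 and -0.68 log2, none past the threshold. The changes of 10 of the 13 genes tested were above 0. In every fit without 1 array the uncalled *Ltf*, *Mmp9*, *Ctsg*, *Chil3* and *Csf3r* stayed above 0. For *Chil3* the change was 0.75 to 1.19 log2 in those fits (adjusted p = 0.0731 over all arrays). *Hp* and *Ngp* each lost their call in 4 of the 12 fits without 1 array, at adjusted p up to 0.0660 and 0.0650. The median over the 13 genes was 0.93 log2, and without E2 and D2 3 of them rose.

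Of 24 bacterial sensing and NF-κB genes, 5 rose, 0 fell and 19 did not pass. *Fpr2*, a receptor for bacterial formyl peptides, measured 10.73, 10.17, 10.13 and 10.10 log2 in E, F, E2 and F2 and 13.83, 12.94, 13.45 and 13.10 in A, B, A2 and B2. It was about as even within the CLP arm as within sham, and rose by 3.05 ± 0.25 (SE) log2 (adjusted p = 7.44e-05). *Clec4e* (Mincle), a receptor for microbial glycolipids, rose by 2.05 log2 (adjusted p = 0.0167), the lipopolysaccharide-binding protein *Lbp* by 0.92 (0.0245) and the Toll-like receptor adaptor *Myd88* by 0.84 (0.0284). The fifth was *Tirap*, another Toll-like receptor adaptor, by 0.62 (0.0128), named after its values were seen. Without E2 and D2 *Fpr2* (0.00169) and *Tirap* (0.0371) passed. The Toll-like receptor genes tested, *Tlr4*, *Tlr6*, *Tlr9* and *Tlr13*, had changes of -0.64, 0.42, -0.29 and 0.73 log2, none past the threshold.

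Anti-inflammatory and checkpoint genes moved mostly upward. Of 21 tested, 9 rose and 1 fell, with a median change of 0.90 log2, and 5 rose and 0 fell without E2 and D2. Beside *Socs3*, *Il1r2*, *Il10* and *Il1rn*, the risers included *Ctla4*, an inhibitory receptor of T cells, at 7.62 to 7.91 log2 in sham and 11.85, 8.47, 12.37 and 10.73 in A, B, A2 and B2 (adjusted p = 0.0280, lost without any 1 of E, F, E2, F2, A and A2, up to 0.0850). *Lilrb4a*, an inhibitory receptor of myeloid cells, rose by 2.19 log2 (adjusted p = 0.00380), *Socs2* by 1.67 (0.0145) and *Il18bp*, which neutralises IL-18, by 0.96 (0.00558). The 1 gene that fell was *Havcr2* (TIM-3), by 0.98 log2 (adjusted p = 0.0389). Those last 4 genes were named after their values were seen.

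Of 11 glucocorticoid and metallothionein genes tested, 7 rose and 0 fell, and 4 of the rises stood without E2 and D2. *Fkbp5*, a chaperone of the glucocorticoid receptor and one of its standard targets, measured 8.47 to 8.91 log2 in sham and 10.25 to 10.98 in CLP. Its rise of 1.98 ± 0.26 (SE) log2 (adjusted p = 0.00143) came with an even CLP arm, and array B (10.72) was not the one nearest sham. *Pdk4*, which restrains pyruvate oxidation, rose by 2.31 ± 0.43 (SE) log2 (adjusted p = 0.00818), and *Cebpb*, a transcription factor of the acute-phase response, by 2.31 ± 0.37 (SE) (adjusted p = 0.00414). These 3 kept their calls without E2 and D2. *Cdkn1a* above is on the same list. *Tsc22d3*, another standard target, had changes of 0.09 log2 (adjusted p = 0.85) and, on a dimmer probe, 0.63, neither past the threshold.

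Complement and acute-phase genes showed 6 rises and 0 falls among 13 tested, and the changes of all 13 were above 0. Only 2 of the rises, *Saa3* and *Cp*, stood without E2 and D2. *Cp*, the copper ferroxidase ceruloplasmin, was at 5.25 to 5.58 log2 in sham and 7.36 to 8.94 in CLP, at least 4.72-fold (adjusted p = 0.000851). A second *Cp* probe changed by 0.33 log2 and was not called. Complement factor B (*Cfb*) rose by 1.22 log2 (adjusted p = 0.0150) and lost its call without both E2 and D2 (0.0581). *Saa1* had a change of 1.72 log2 that did not pass (adjusted p = 0.0529).

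The 12 largest falls, picked by the same rule as the rises, included 4 genes known from B cells, 3 known from macrophages or dendritic cells and 5 others. *Fcer2a* (CD23), the low-affinity IgE receptor of follicular B cells, measured 11.63, 11.70, 11.75 and 11.96 log2 in sham arrays E, F, E2 and F2. In CLP arrays A, B, A2 and B2 it measured 7.43, 9.77, 7.85 and 8.02. Array B lay between sham and the other CLP arrays. The fall was -3.49 ± 0.58 (SE) log2, 11.3-fold (adjusted p = 0.00482, and 0.0252 without E2 and D2), and its 2 probes showed -3.49 and -3.31.

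*Cr2* (CD21), the complement receptor of marginal zone and follicular B cells, was at 8.87 to 9.20 log2 in sham and at 5.79, 8.21, 5.89 and 6.41 in A, B, A2 and B2. It fell by 2.47 ± 0.56 (SE) log2 (adjusted p = 0.0180), and lost its call without A (0.0602), without A2 and without both E2 and D2 (0.0633). *Ly6d*, a surface protein of the B lineage, was at 13.14 to 13.68 in sham and at 10.38 to 11.97 in CLP (adjusted p = 0.00674). The adaptor *Gapt*, known from B cells, went from 9.02 to 9.31 in sham to 5.88, 8.47, 5.86 and 6.39 in CLP (adjusted p = 0.0295, lost without any 1 of 7 arrays, up to 0.0893 without A).

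The lectins *Mgl2* and *Cd209d* and the receptor *Gpr34* are known from macrophages and dendritic cells. *Mgl2* (CD301b) was at 8.16, 8.52, 8.14 and 8.33 log2 in E, F, E2 and F2 and at 5.47, 6.36, 5.61 and 6.26 in A, B, A2 and B2, a fall of at least 4.39-fold (adjusted p = 8.30e-05). *Cd209d*, a C-type lectin of the DC-SIGN family, was at 7.32 to 7.67 in sham and below the floor in all 4 CLP arrays, at least 2.87-fold lower (adjusted p = 7.90e-05). *Gpr34*, a lysophospholipid receptor, ranged from 4.30 to 6.78 in CLP against 7.96 to 8.34 in sham, and fell at least 3.81-fold (adjusted p = 0.00743). All 3 kept their calls whichever array was left out and without E2 and D2.

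The remaining large falls were *Slc46a3*, a lysosomal transporter (-2.24 ± 0.29 (SE) log2, adjusted p = 0.00137), *B3gnt8*, a glycosyltransferase (-2.52), *Prelp*, a matrix proteoglycan (-2.29), *Dleu2*, the non-coding host gene of 2 microRNAs (-2.29), and *Uros*, an enzyme of haem synthesis (-2.07). *Slc46a3* kept its call in every fit without 1 array. *B3gnt8*, *Prelp*, *Dleu2* and *Uros* lost theirs in 6 or 7 of the 12, at adjusted p up to 0.0654, 0.126, 0.133 and 0.0827. For *Dleu2* array B (8.86) was close to sham (8.94 to 9.17), against 5.92 to 6.32 in the other CLP arrays. The second *Uros* probe showed -0.89.

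**Figure D3:**
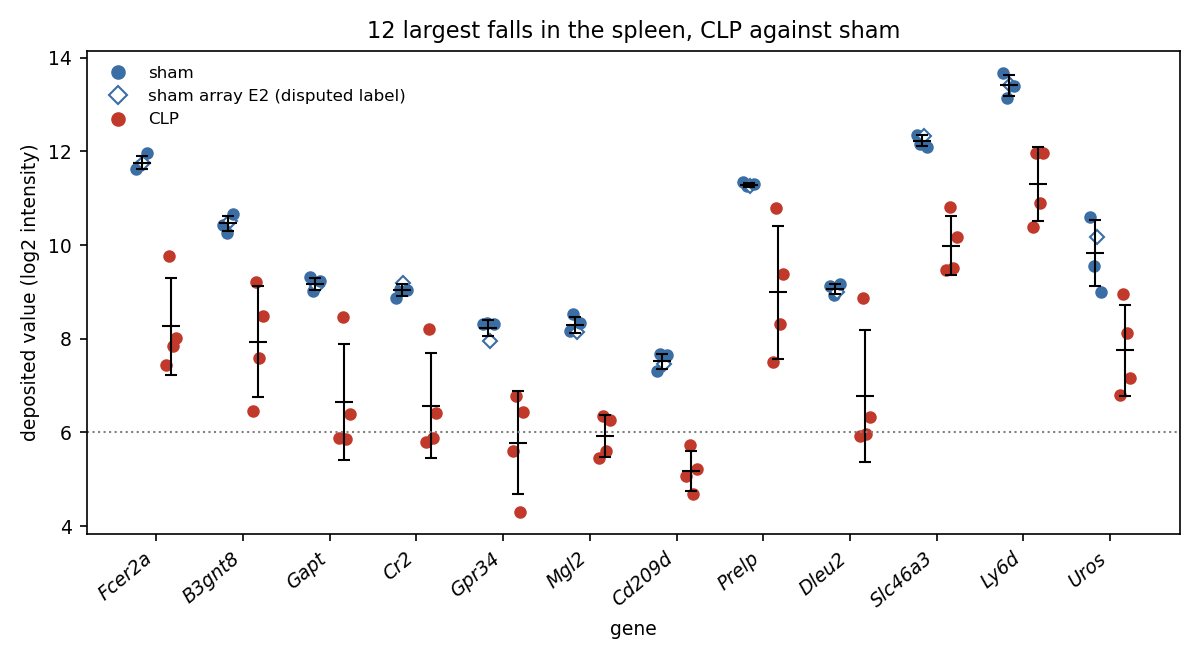
Deposited log2 intensity of the 12 genes with the largest called falls, on the 4 sham (blue) and 4 CLP (red) arrays, with the mean and SD of each arm in black, an open diamond for sham array E2 and a dotted line at the 6 log2 floor. CLP array B is the highest red point for 11 of the 12 genes, and *Mgl2* and *Cd209d* have the tightest CLP arms.

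Of 15 B cell genes tested, 7 fell, 0 rose and 8 did not pass, while 14 of the 15 changes were below 0, with a median of -0.88 log2. Beside *Fcer2a* and *Cr2*, *Ralgps2* fell by 1.73 log2 (adjusted p = 0.0146), the transcription factor *Spib* by 1.43 (0.0347), the BAFF receptor *Tnfrsf13c* by 1.01 (0.0436), *Ms4a1* (CD20) by 0.84 (0.0229) and the kinase *Blk* by 0.71 (0.0142). *Tnfrsf13c*, *Ms4a1* and *Blk* were named after their values were seen. A second *Blk* probe, at -0.50, was not called. The kinase *Btk*, also of the B lineage, had a change of 0.16 log2 that did not pass. The transcription factor *Ebf1* had -0.04 on its brighter probe, which did not pass, and 0.70 on a dimmer one, which did (adjusted p = 0.0365). Without E2 and D2 2 of the 7 calls stood, and over the fits without 1 array the number lay between 3 and 10. A further 5 B cell genes could be read only from the second table, without those arrays, with 0 called and a median of -1.16 log2. Of 3 plasma cell genes tested, *Tnfrsf17* (BCMA) fell at least 1.96-fold (adjusted p = 0.00804) and the other 2 did not pass.

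Genes of antigen presentation by MHC class II fell. Of 15 MHC class II and dendritic cell genes, 8 fell and 0 rose, and 5 of the falls stood without E2 and D2. *H2-DMb2*, a chaperone of peptide loading, measured 12.88, 12.82, 12.88 and 12.89 log2 in sham and 10.81, 11.62, 10.88 and 12.10 in A, B, A2 and B2 (adjusted p = 0.00943). *Ciita*, the master regulator of these genes, fell by 1.71 log2 (adjusted p = 0.0362), with 1 of its 2 probes called, and lost the call without any 1 of E, F, E2, F2, A and A2 (up to 0.107). *Clec4a4* (DCIR2), a marker of a splenic dendritic cell subset, fell at least 2.70-fold (adjusted p = 0.00109), and the lectin *Cd207* (langerin) at least 1.58-fold (adjusted p = 0.00268). The costimulatory gene *Cd80* had a change of 1.17 log2 that did not pass (adjusted p = 0.0587).

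NK cell and cytotoxic genes fell in 8 of 10 cases, 1 rose and 1 did not pass. *Nkg7*, a cytotoxic granule protein, was at 10.95 to 11.33 log2 in sham and at 8.71, 9.79, 8.85 and 9.91 in A, B, A2 and B2 (adjusted p = 0.00638). *Xcl1*, a chemokine that NK and CD8 T cells make, fell by 1.76 ± 0.21 (SE) log2 (adjusted p = 0.000822) and the Ly49 receptor *Klra3* by 1.74 ± 0.25 (SE) (adjusted p = 0.00224). The riser was *Cd244a* (2B4), by 1.52 ± 0.25 (SE) log2 (adjusted p = 0.00461). These 4 kept their calls without E2 and D2, where the list had 4 falls and 1 rise.

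Chains of the T cell receptor complex fell. Of 14 T cell genes tested, 4 fell, 2 rose and 8 did not pass, with a median of -0.69 log2. *Cd3d*, a chain of the T cell receptor complex, was at 11.78 to 12.35 log2 in sham and at 10.70 to 11.27 in CLP, a fall of 1.13 log2 (adjusted p = 0.00947). *Cd3e* fell by 1.05 (adjusted p = 0.0347, lost without any 1 of 6 arrays, up to 0.103 without A) and *Cd96* by 0.96 (adjusted p = 0.0112). The other fall was *Lef1*, by 0.74 log2, and the rises were *Ctla4*, above, and the IL-7 receptor gene *Il7r*, by 0.58 to 0.94 on 3 probes. *Lef1* and *Il7r* were named after their values were seen. *Cd4* had a change of -0.26 log2 (adjusted p = 0.42). With E2 and D2 left out, 2 genes fell and 0 rose.

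Red pulp and erythroid genes changed less uniformly. Beside shares of 7.18% higher and 7.09% lower over all genes tested, the erythroid and iron calls of the main fit do not stand out. Of 12 monocyte and macrophage genes, 3 rose and 2 fell, and 2 of the rises and 0 of the falls stood without E2 and D2. *Spic*, the transcription factor that red pulp macrophages need, rose from 9.84 to 10.19 log2 in sham to 11.34, 10.58, 11.21 and 11.41 in A, B, A2 and B2 (adjusted p = 0.00836). *Slc11a1* (NRAMP1), a metal transporter of phagosomes, rose by 0.86 log2 in its leading probe and by up to 1.08 in the others (3 of 3 called). *Timd4*, a receptor for apoptotic cells, fell by 1.11 log2 (adjusted p = 0.0153, and 0.0513 without A), and *Hpgd*, which degrades prostaglandins, by 1.74 (adjusted p = 0.0395, lost without any 1 of 6 arrays, up to 0.0927). Of 12 erythroid genes only *Uros* fell, a call lost without E2 and D2 (0.0842). *Alas2* and *Hbb-b2* had changes of -1.85 and -1.69 log2 that did not pass (adjusted p = 0.0827 and 0.109). For both, no CLP array overlapped a sham array, as held in one direction or the other for 23.4% of all probes tested. With the pancreas enzyme level as a covariate, 5 erythroid genes were called lower. Of 10 genes of iron and haem handling, *Hp* alone rose, a call lost without E2 and D2 (0.0678), and 0 fell.

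Of 8 platelet genes tested, 4 fell and 0 rose, and 3 of the falls stood without E2 and D2. In the second table a further 6 platelet genes were tested without those arrays, and 0 were called, with a median change of 0.27 log2. They ranged from -0.11 (*Gp5*) to 1.87 (*Selp*, P-selectin). *Treml1*, a receptor stored in platelet granules, fell by 1.19 log2 (adjusted p = 0.00998), the platelet chemokine *Ppbp* by 1.16 (0.00420), and the collagen receptor *Gp6* and *Gp9* by 0.78 and 0.74 (0.0167 and 0.0155). *Gp6* lost its call without E, F2 or A, and *Gp9* without F2. Among 17 stromal and endothelial genes, 3 fell, the contractile gene *Myl9* by 1.43 log2 and the collagens *Col3a1* and *Col1a1* by 1.16 and 0.88. A second *Col3a1* probe showed -0.47 and was not called. The growth factor receptor *Pdgfra* rose by 1.53 (adjusted p = 0.0273) and *Madcam1*, an adhesion molecule of the marginal sinus, named after its values were seen, by 0.78. With E2 and D2 left out, 2 stromal genes fell and 0 rose (*Pdgfra* at adjusted p = 0.0740).

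Several programs with known roles in sepsis gave few calls, where 7.18% of all genes tested rose and 7.09% fell. Of 22 interferon-stimulated genes, 0 rose and 2 fell (*Psmb9* and *Ifi27*, by 0.79 and 0.54 log2, the first also without E2 and D2), while 17 of the 22 changes were above 0 and the median was 0.73 log2. The CLP arrays were uneven here. The mean level of the 26 listed interferon genes on the rows used ran from 8.70 to 10.67 log2 over the CLP arrays, against 8.88 to 9.14 in sham. Of 25 cell cycle genes only *Ccnd1* (cyclin D1) fell, from 11.78 to 11.99 log2 in sham to 10.36 to 10.96 in CLP (adjusted p = 0.00152, and 0.00496 without E2 and D2). Of 19 apoptosis genes 3 rose, *Cdkn1a*, the caspase inhibitor *Xiap* by 0.65 log2 (its other 2 probes showed 0.43, called, and 0.26) and the BH3-only gene *Bbc3* (PUMA) by 0.54, where a second *Bbc3* probe showed 0.09. Of 13 glycolysis and hypoxia genes, *Pfkp* and *Ldha* rose by 0.64 and 0.39 log2, and a second *Pfkp* probe showed 0.49 and was not called. Of 16 genes of endoplasmic reticulum stress and heat shock, the co-chaperone *Bag3* rose by 0.77 and *Dnajb1* fell by 0.81. Without E2 and D2 no gene of the apoptosis, glycolysis and heat shock lists was called.

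**Figure D4:**
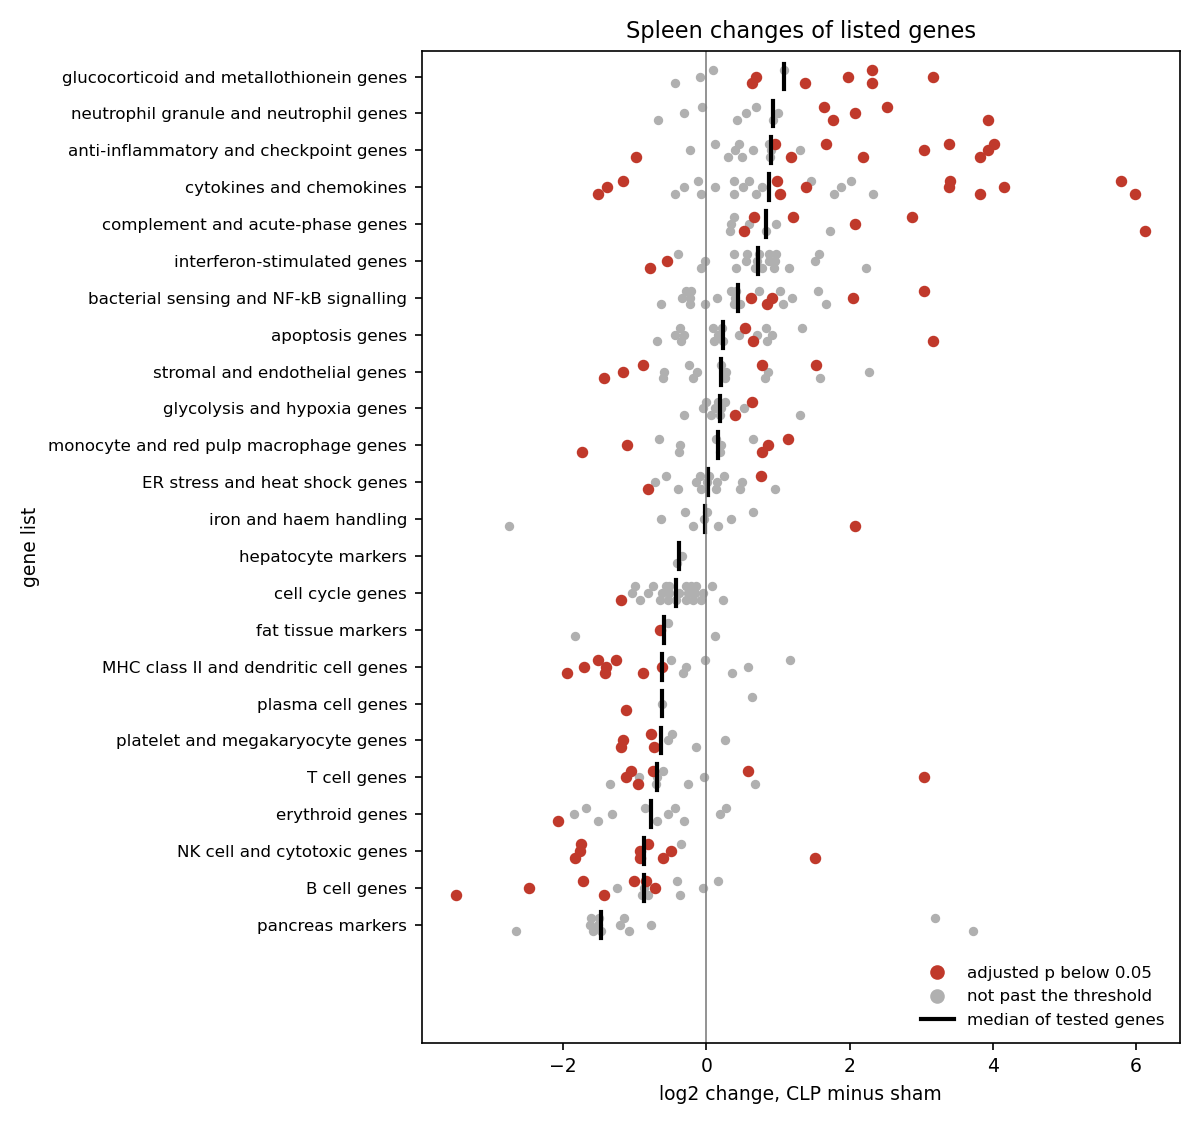
Log2 change, CLP minus sham, of every tested gene of each list (rows, ordered by median), with called genes in red, others in grey and the median as a black bar. Glucocorticoid targets (median 1.09 log2), neutrophil genes (0.93) and anti-inflammatory genes (0.90) lie to the right of 0, and NK cell genes (-0.87) and B cell genes (-0.88) to the left.

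The medians were close in the arrays high and low in pancreas RNA for some of these lists and apart for others. Between A and B and the sham arrays F and F2, all high in pancreas enzymes, the median change was -0.81 log2 for B cell genes, -0.88 for NK genes, 0.92 for anti-inflammatory genes and 1.19 for neutrophil genes. Between A2 and B2 and the sham arrays E and E2, all low, the same medians were -0.91, -0.85, 0.93 and 0.80. They differed more for cell cycle genes (0.13 in the high and -1.02 in the low arrays), erythroid genes (-0.43 and -1.04) and glucocorticoid targets (0.65 and 1.63). The same was true of fat genes (-1.02 and 0.18), pancreas genes (-0.34 and -2.08) and plasma cell genes (-0.29 and -0.85). Interferon-stimulated genes had 0.98 and 0.47, and monocyte and macrophage genes -0.07 and 0.36. With the enzyme level as a covariate, 1816 probes were called, 1449 of them among the 1492, and all 24 of the largest rises and falls remained called. Those 24 had been picked as called over all arrays. Within the arrays high in pancreas enzymes, 2 of the 12 rises and 2 of the 12 falls were called. Within the low arrays, 11 of the 12 rises and 11 of the 12 falls were. The *Reg3b* gene, which the pancreas makes under stress, had a change of 3.72 log2 that did not pass (adjusted p = 0.40).

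The CLP change in the spleen was then compared with that in liver, lung, kidney and heart, averaged over those 4 organs for each of 5 mice per arm. Only differences within each set entered this test, because how the spleen arrays were scaled against the others is not given in the sources used here. Whether spleens and other organs came from the same mice is not given in the sources used here, and they were fitted as independent. Single spleen arrays and means over 4 organs also shared a common estimate of the spread for each probe. Where a probe varies more in the spleen, the SE of the difference is then too small and its adjusted p too favourable. For *Fcer2a* that SE was 0.55 log2, against 0.58 for the spleen change alone. The counts below carry this limit. Of 8241 probes bright enough in both sets, the change differed for 930 (11.3%), with the spleen above the other organs for 388 (4.71%) and below for 542 (6.58%). The count was 731 without E2 and D2 and 1531 without array B.

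*Cxcl12* on its brightest probe moved in opposite directions. It rose by 1.39 log2 in the spleen and fell by 1.24 in the other organs (adjusted p = 1.89e-06 there), and the difference of 2.62 log2 had adjusted p = 7.15e-09, and 9.77e-08 without E2 and D2. On its other 2 probes the spleen changes of 0.27 and -0.16 did not pass, and the differences from the other organs were 1.73 (adjusted p = 0.00466) and 1.47 (0.0522). *Il18* on its brighter probe changed by 0.99 in the spleen and by -0.42 elsewhere, with adjusted p = 0.000364 for the difference. Both genes were picked out after their values were seen.

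Of 10 neutrophil genes bright enough in both sets, the spleen change lay below that of the other organs for 3 granule genes. It lay above for 1, *Il1r2*. Over all probes these shares were 6.58% below and 4.71% above. *Camp*, the antimicrobial peptide cathelicidin, changed by -0.31 log2 in the spleen and by 2.02 in the other organs (adjusted p = 0.00433 for the difference). *Pglyrp1*, which binds bacterial peptidoglycan, changed by -0.68 and 1.26 (0.00585), and *Ngp* by 1.64 and 3.35 (0.0153). The haem oxygenase *Hmox1* changed by 0.65 log2 in the spleen and by 2.84 in the other organs (0.00511). Those 4 genes were also named after their values were seen. *Saa3* rose by 6.13 log2 in the spleen and 6.77 in the other organs, a difference of -0.64 ± 0.49 (SE) log2 that did not pass (adjusted p = 0.42).

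Of the 73 genes named by rule, 52 were bright enough in both sets and 14 differed. The fall of *Fcer2a* was -3.49 log2 in the spleen and -0.23 in the other organs (adjusted p = 0.000748). *B3gnt8* (-2.52 and -0.45), *Ly6d* (-2.10 and -0.07), *Nkg7* (-1.83 and -0.52), *Mgl2* (-2.37 and -1.16) and *Treml1* (-1.19 and -0.20) also fell further in the spleen. *Mmp3* (4.31 and 1.55), *Il1r2* (3.94 and 2.36), *Cp* (2.88 and 1.59) and *Pdgfra* (1.53 and 0.31) rose further in the spleen. The other 4 were *Cd207*, *Lpl*, *Dnajb1* and *Gp9*, all below the other organs. These are results of the brightest probe of each gene. On the dimmer *Mmp3* probes the differences were 2.26 and 2.05 log2 (adjusted p = 0.137 and 0.152). On the second *Cp* probe the difference was 0.12 (0.689), so none of these passed. Without E2 and D2 the differences of *Mmp3*, *Il1r2*, *Cp*, *Pdgfra*, *Ly6d* and *Dnajb1* no longer passed, at adjusted p = 0.0893, 0.0644, 0.0539, 0.0646, 0.0625 and 0.0973, and *Cd207* was not tested.

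**Figure D5:**
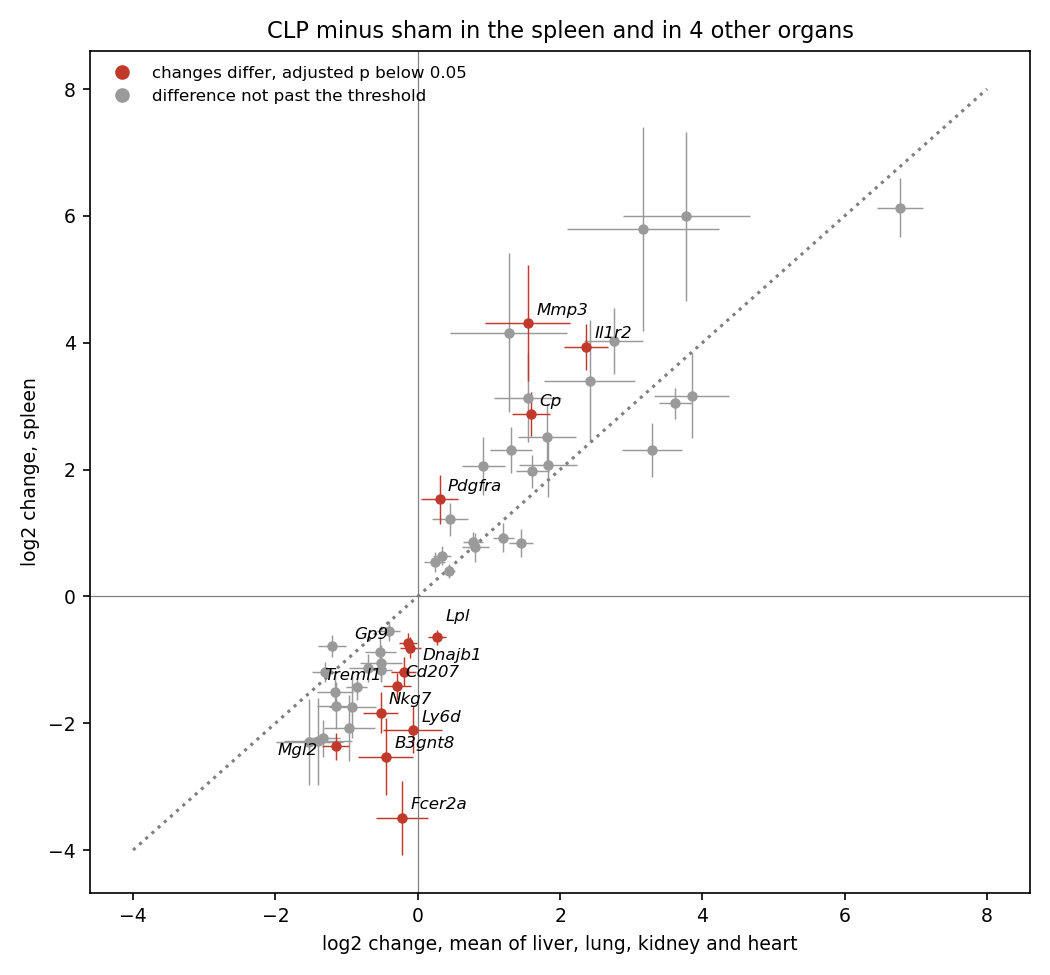
Log2 change, CLP minus sham, in the spleen (vertical axis) against that averaged over the other 4 organs (horizontal axis) for the 52 named genes bright enough in both sets, with bars of 1 SE and a dotted line of equal change. Genes whose change differed at adjusted p below 0.05 are red and named, such as *Fcer2a* at -3.49 in the spleen and -0.23 elsewhere.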

How the data were processed

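RNA of mouse organs was measured on Illumina bead arrays. The deposited table is headed as non-normalized, but its values run from 0.0144 to 16.03 and were treated as log2 intensity; how the authors made these log2 values is not given in the sources used here, per the file headers and the labels. Of 45281 probe rows, 45255 were complete, and the 22504 that follow the heading were used. A probe was tested where it exceeded 6 log2 in at least 4 of 12 spleen arrays. The 3 spleen arms were fitted together with limma 3.58.1 in R 4.3.3 (lmFit and eBayes, Benjamini-Hochberg adjustment, threshold 0.05), and every adjusted p is from limma across all probes tested. No new normalization was applied. The number of arrays per arm limits precision. Of the probes used, 17370 had 1 gene symbol in the platform annotation of 2016, 7 several and 5127 none.

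Where the dimmer arm averaged under 6 log2, the fold is given as a lower bound against that floor. Among probes of a gene, the brightest is described and counted, and the others are given for some genes only. For further listed genes a dimmer probe was called where the brightest was not. These were *Vcam1* (1.89 and 1.57 log2, against 0.21 on the brightest), *Acta2* (-1.27, against -0.24) and *Cd8b1* (-2.25, against -0.60). They also included *Pdk1* (0.90, against 0.20), *Cxcl16* (0.87, against 0.52) and *Fcrla* (-1.11, against -0.81). The genes named are the 12 largest called rises, the 12 largest called falls and up to 4 called genes of each list, and others are said to have been chosen after their values were seen or stand as uncalled members of a list. The 12 rises and 12 falls were taken only among called genes whose 4 CLP arrays did not overlap the 4 sham arrays. Their lack of overlap is therefore no result. Members and gene lists were chosen with earlier results of these data known. The fit was tested on simulated data. Title numbers and label sets shared between arms were not used to pair arrays in the main fit.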

Additional observations from a re-analysis of the deposited data

Results flagged for a closer look

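In 8 of 146 groups of 4 arrays, 1 array lay far from the other arrays of its arm by Dixon's criterion, which chance alone meets in about 1 in 20 groups. *Gpr34* was at 7.96 log2 in sham array E2 against 8.31 to 8.34 in the other sham arrays, *Fpr2* at 10.73 in E against 10.10 to 10.17, *Gp6* at 6.72 in F against 7.07 to 7.10, *Klra3* at 9.09 in F2 against 8.54 to 8.63, and *Pdk4* at 7.87 in F2 against 7.22 to 7.28. Among CLP arrays, B stood apart for *Dleu2* (8.86 against 5.92 to 6.32), *Dnajb1* (11.87 against 11.22 to 11.23) and *Ldha* (13.26 against 13.02 to 13.05).

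The CLP change in the spleen differed from that in the other organs for 930 probes, by limma's test of the difference. That test gave spleen arrays and organ means a common spread, the limit stated above. Among the named genes the spleen's change minus that of the other organs was -3.27 log2 for *Fcer2a*, -2.08 for *B3gnt8*, -2.04 for *Ly6d*, -1.31 for *Nkg7*, -1.21 for *Mgl2*, -1.11 for *Cd207*, -0.99 for *Treml1*, -0.92 for *Lpl*, -0.70 for *Dnajb1* and -0.60 for *Gp9*. It was 1.23 for *Pdgfra*, 1.29 for *Cp*, 1.57 for *Il1r2* and 2.76 for *Mmp3*, each on the brightest probe. On the dimmer probes of *Mmp3* and *Cp* the difference did not pass.

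The second deposited table covers probes on rows that were not used above. Over all its probes and without E2 and D2, 1117 of 20558 probes differed between CLP and sham.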

How the results depend on the processing

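The settings without E2 and D2, within a label set, with the pancreas level or by pancreas level were chosen after seeing the data. Against 1492 probes called, and 526 at least 2-fold, the counts were 950 with no filter, 3307 and 977 with array weights, and 508 and 260 without E2 and D2. Leaving out 1 array gave 532 to 3021 and 244 to 1141, lowest without A and highest without B. On the second table as labelled, which places a sham and an MSC array in each other's arm, limma called 0 and 0 on the same probes and on all its probes, where 1491 of 11048 and 2941 of 21151 had an unadjusted p under 0.05. Within the label set without a 2 the counts were 5 and 5, and within the other 607. They were 59 and 59 in the arrays high in pancreas enzymes and 1064 and 757 in those low, and with the enzyme level as a covariate and without E2 and D2 488 and 260. The label set as replicate block gave 1942 and 636, and 423 and 231 without E2 and D2. The title number as replicate block gave 1918 and 1606. Arrays sharing a title number had deviations correlated at -0.40, -0.39 and 0.32. These few values cannot settle whether a title number marks a pairing. Against 930 probes whose change differed between spleen and other organs, lung alone gave 545, liver alone 1707 and array weights 1731, 299 were called with the second table, and 662 to 1531 on leaving out 1 array. The causes were not tested. Of 73 named genes, 42 kept their call in every fit without 1 array and 38 without E2 and D2, and no named gene changed sign in any setting. Probes under 6 log2 have only bounds.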

Other observations

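Some genes with known roles in sepsis lie only on rows of the first table that were not used, and their changes could be read from the second table, without E2 and D2. Genes were picked from them after their values were seen, and levels cannot be compared between genes there because each probe carries its own offset. *Lcn2*, the iron-sequestering neutrophil protein lipocalin 2, rose by 5.53 log2 (limma adjusted p = 1.79e-05), *Serpina3n*, an acute-phase protease inhibitor, by 3.83 (1.13e-05), and *Lrg1*, another acute-phase gene, by 3.67 (7.72e-05). The lipopolysaccharide co-receptor *Cd14* rose by 3.75, the monocyte chemokine *Ccl12* by 4.43, the metallothionein *Mt2* by 3.52, arginase 1 (*Arg1*) by 3.44 and the neutrophil alarmin subunit *S100a9* by 1.61.

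Of the listed genes on those rows, 4 of 8 T cell genes, 3 of 5 MHC class II and dendritic cell genes, 1 of 4 NK cell genes and 0 of 5 B cell genes were lower, and 0 of these were higher. Over all 3398 genes found only on those rows, 3.12% were higher and 2.91% lower. *Cd3g*, a chain of the T cell receptor complex, fell by 2.32 log2, the NK receptor *Klre1* by 2.43, the cytotoxic protease *Ctsw* by 1.71, and *H2-DMa* and *H2-Aa* of the MHC class II pathway by 1.40 and 0.72. The uncalled T cell genes included *Ccr7* (0.31) and *Foxp3* (-0.36). *Apol7c*, known from dendritic cells, and *Klre1* are on none of the lists, and *Apol7c* fell by 3.58.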
